A study of Homo sapiens with 66 samples.

Results

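The MYC network was followed through 8 genes chosen by name. These were MYC, its dimerisation partner MAX, the MAX-binding repressors MNT, MXD1, MXD3, MXD4 and MXI1, and the related factor MLX. All 8 were found among the 20167 genes of the count table and passed the filter on low counts in each of the 41 comparisons made. RNAseq had been carried out on 66 libraries in 22 groups of 3 replicates. The AMO1 cells, a human multiple myeloma line labelled as wild type, gave 12 groups, treated for 6 h or 24 h with DMSO, NCP26, HFG (halofuginone, MAZ1392), halofuginol (MAZ1805), NCP22 or the proteasome inhibitor carfilzomib (CFZ). The L363-CFZr cells, a CFZ-resistant form of the myeloma line L363, gave 10 groups with the same agents except CFZ. NCP26, HFG, halofuginol and NCP22 were each used at 1 µM, and the study tested them as inhibitors, or analogues of inhibitors, of prolyl-tRNA synthetase (ProRS). Parental L363 cells were not analysed here, so that the line and its acquired resistance cannot be told apart. The study describes its experiments in general as done in biological triplicate. The sources used here do not say whether the RNAseq replicates were separate cultures, and p-values measure only the spread between these samples.

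MYC is a transcription factor that binds DNA as a heterodimer with MAX, most tightly at the palindromic E-box CACGTG, and activates genes of ribosome biogenesis, nucleotide synthesis and growth. The MXD proteins (MXD1, MXD3, MXD4 and MXI1) and MNT compete with MYC for MAX and recruit the SIN3-HDAC corepressor complex to the same sites. MLX pairs with the glucose-sensing factors MLXIP and MLXIPL and with some MXD proteins and MNT, which links the network to metabolism. In multiple myeloma MYC is often activated by rearrangement, and the plasma cell factor IRF4 helps to maintain it.

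The E-box was searched for in the RefSeq promoter windows of GRCh38.p14, which run from 250 bases before to 50 bases after a transcription start. CACGTG reads the same on both strands. It was held by 7.26% of 35116 promoters, and 8.77% of 27305 genes held it in at least 1 promoter. A promoter entry was matched for 7 of the 8 members, all but MYC. The windows of MNT, MXD4 and MLX held the motif, and those of MAX, MXD1, MXD3 and MXI1 did not. Of a list of 61 known MYC targets, 51 were matched and 26 (51%) held it. The stretches that carry the motif are shown for the 3 members that have one, being repressors and a partner whose own promoters hold the letters that the network reads. They are also shown for HK2, UNG and IPO4, 3 listed targets with a motif before the start that fell with NCP26 in AMO1 cells at 6 h. These were chosen after their values were seen, among targets with a mean of at least 5 CPM. Not every listed target was open to this choice, so that others with a motif may have fallen more. Sequences run 5′ to 3′ on the strand of the gene, with up to 50 bases on either side of the motif within the upstream window, and capitals mark CACGTG. The MNT stretch lies at chr17:2401198-2401303 on the minus strand, with the motif 193 bases before the start. That of MXD4 lies at chr4:2262292-2262359 on the minus strand, with the motif 238 bases before the start, and that of MLX at chr17:42567000-42567099 on the plus strand, with the motif 50 bases before the start. HK2 is shown at chr2:74834926-74835031 on the plus strand, with the motif 194 bases before the start (the first of 2, both within the stretch), UNG at chr12:109097922-109097995 on the plus strand, with the motif 232 bases before the start (the first of 2, the other outside the stretch), and IPO4 at chr14:24188817-24188895 on the minus strand, with the motif 29 bases before the start.
MNT: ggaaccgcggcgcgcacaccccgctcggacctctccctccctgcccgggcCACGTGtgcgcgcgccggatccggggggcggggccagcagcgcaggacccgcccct
MXD4: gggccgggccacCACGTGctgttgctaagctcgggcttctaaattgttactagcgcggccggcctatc
MLX: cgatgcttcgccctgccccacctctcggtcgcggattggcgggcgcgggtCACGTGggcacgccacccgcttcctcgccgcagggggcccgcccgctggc
HK2: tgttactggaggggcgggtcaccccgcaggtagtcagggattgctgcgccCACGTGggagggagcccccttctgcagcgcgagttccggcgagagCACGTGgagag
UNG: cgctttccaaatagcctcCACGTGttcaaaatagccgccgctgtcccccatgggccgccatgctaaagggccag
IPO4: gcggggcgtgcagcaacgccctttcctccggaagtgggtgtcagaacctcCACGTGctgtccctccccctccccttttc

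Depth ranged from 1666325 to 5761682 counts per AMO1 library and from 2487872 to 6596543 per L363-CFZr library. MYC had 468 to 2819 counts per library, while MNT went down to 19 and MXD3 to 16, so that small changes of the latter pair could not be seen at this depth. All 10 plasma cell markers lay above 5 CPM on average in both lines, and none of the 16 markers of B cells, T and NK cells, myeloid cells and stroma did. A pair of libraries stood apart from their own group. Replicate 2 of L363-CFZr DMSO at 24 h correlated at 0.909 with the mean of the other 2 replicates, and replicate 2 of AMO1 CFZ at 24 h at 0.930, on log2(CPM + 1) across genes. The other 64 libraries lay between 0.970 and 0.995, and members' calls that change without them are given both ways. The sample numbers in the column names fall into 3 sets of 22 libraries. All AMO1 libraries of 6 h and the DMSO libraries of 24 h are of one set, and the treated AMO1 libraries of 24 h, save replicate 1 of CFZ, are of another. Within a comparison, set and treatment therefore cannot be told apart for NCP26, HFG, NCP22 and halofuginol against DMSO at 24 h in AMO1 cells, nor for HFG and halofuginol at 6 h in L363-CFZr cells. A term for set, fitted over all 66 libraries, rests on the groups that span sets. These are AMO1 CFZ at 24 h, whose 3 libraries include one that stood apart, and L363-CFZr NCP22 at 6 h, so that values with this term depend on 3 libraries for each step between sets.

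The members lie on 7 chromosomes, with positions from GENCODE v44 on GRCh38. MYC is at chr8:127735434-127742951 on the plus strand, MAX at chr14:65006174-65102695 on the minus strand and MNT at chr17:2384073-2401104 on the minus strand. MXD1 is at chr2:69897688-69942945 on the plus strand, MXD3 at chr5:177301461-177312757 on the minus strand and MXD4 at chr4:2247432-2262109 on the minus strand. MXI1 is at chr10:110207605-110287365 on the plus strand and MLX at chr17:42567072-42573239 on the plus strand. Reads had been assigned to transcripts by their 31-mers and summed per gene, so sequence held in common with other genes makes a level uncertain. Of the 31-mers of MXD3, 40.8% also occur elsewhere, in RAB24, PRELID1 and pseudogenes of PRELID1. The share was 21.7% for MLX, 16.7% for MNT, 14.6% for MAX, 2.65% for MYC (with CASC11) and at most 3.28% for MXD1, MXD4 and MXI1.

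Without drug, MYC was the most abundant of the 8 RNAs per length of transcript. Levels in CPM (a gene's count scaled to the size of its library, after TMM normalisation) were divided by the median transcript length. In AMO1 DMSO at 6 h (means of 3) this gave 216 CPM per kb for MYC, 77.3 for MLX, 64.1 for MAX and 63.2 for MXD4. By this length the other repressors stood at 50.5 CPM per kb for MXI1, 35.6 for MXD1, 25.98 for MNT and 14.8 for MXD3. MYC ranked first in 21 of the 22 groups. The exception was AMO1 NCP26 at 24 h, where MXI1 stood at 127 and MYC at 117 CPM per kb. With the longest transcript MYC again ranked first in 21 groups, but the least abundant member was MNT in 15 groups, where the median length gave MXD3 in 20. The place of MXI1 also depended on the length. With the longest transcript its median over the 22 groups was 32.4 CPM per kb, beside 29.2 for MLX, 17.7 for MAX and 9.96 for MXD4.

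The lines differed most in MXD1, a repressor known to rise as cells stop dividing and differentiate. Its level was 35.7, 30.1 and 32.6 CPM in the AMO1 DMSO libraries at 6 h and 12.8, 14.3 and 13.96 CPM in those of L363-CFZr. At 24 h it was 65.7, 68.5 and 54.9 CPM in AMO1 and 12.4, 20.9 and 17.4 CPM in L363-CFZr, and the lines did not overlap at either time. The log2 fold change ± SE of L363-CFZr against AMO1, given in this form from here on with the adjusted p of edgeR's quasi-likelihood test, was −1.28 ± 0.15, adjusted p = 4.06e-07 at 6 h and −1.91 ± 0.21, adjusted p = 0.000468 at 24 h. In all, 4 of 8 members were called at 6 h, where 60.2% of all tested genes were, and 2 of 8 at 24 h against 39.9%. Libraries of the lines did not overlap for 6 of 8 members at 6 h and 5 of 8 at 24 h, beside 64.3% and 55.8% of all genes. MNT was lower in L363-CFZr at 6 h (−0.57 ± 0.20, adjusted p = 0.0194), whereas MXD4 (0.47 ± 0.14, adjusted p = 0.00544) and MLX (0.27 ± 0.10, adjusted p = 0.0323) were higher. MYC was lower in L363-CFZr at 24 h (−0.35 ± 0.10, adjusted p = 0.0318), and its difference at 6 h did not pass the test (−0.15 ± 0.068, adjusted p = 0.0704). These calls of MNT, MXD4 and MLX were lost without 1 or more single libraries, among them replicate 2 of L363-CFZr for MNT and replicate 3 of L363-CFZr for MXD4 and MLX (adjusted p up to 0.110, 0.0841 and 0.197). That of MYC was lost in 5 of 6 refits (adjusted p up to 0.120), all but the one without the library that stood apart. When replicate 2 of L363-CFZr DMSO was left out, 6 of 8 members (all but MXD3 and MLX) were called at 24 h beside 65% of all genes, MYC among them (−0.36, adjusted p = 5.67e-07). The DMSO groups of the lines also differ in set. With a term for set, 3 of these 16 tests passed in place of 6, those of MXD1 at both times and of MNT at 6 h, beside 34.5% of all genes at 6 h and 20.7% at 24 h.

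Between 6 h and 24 h of culture in DMSO 3 repressors rose in AMO1 cells and MYC did not move beyond its spread there. MXI1 rose from 108, 103 and 112 CPM to 209, 226 and 212 CPM in AMO1 cells (1.01 ± 0.075, adjusted p = 4.36e-10). MNT rose from 13.9, 17.8 and 13.5 CPM to 27.5, 28.3 and 22.7 CPM (0.79 ± 0.16, adjusted p = 0.000340), and MXD1 rose as well (0.93 ± 0.12, adjusted p = 7.12e-07). None of these 3 overlapped between the times. MYC was 415, 423 and 432 CPM at 6 h and 417, 415 and 429.6 CPM at 24 h, with a 95% interval of −0.12 to 0.12 for the log2 difference. In L363-CFZr cells MXI1 rose (0.93 ± 0.19, adjusted p = 0.0230), MLX fell (−0.60 ± 0.16, adjusted p = 0.0445) and MNT did not pass the test (1.077 ± 0.31, adjusted p = 0.0506). The calls of MXI1 and MLX there were lost in 4 and 5 of 6 refits that left out 1 library (adjusted p up to 0.125 and 0.164), and not in the one without the library that stood apart. The calls were 3 of 8 in AMO1 and 2 of 8 in L363-CFZr cells, where 46.5% and 14.8% of all genes were called and 54.2% and 49.1% did not overlap. Leaving out the 24 h DMSO library of L363-CFZr that stood apart gave 4 calls beside 41.1% of all genes. MNT (0.69, adjusted p = 0.00963) and MXI1 (1.09, adjusted p = 2.52e-07) were then higher, and MYC (−0.23, adjusted p = 0.0135) and MLX (−0.45, adjusted p = 0.000634) lower. By the methods, which describe AMO1 cells, samples of 6 h were frozen overnight in Trizol and those of 24 h were kept on ice in it. Time and storage therefore cannot be told apart, and the storage of L363-CFZr samples is not described. The DMSO libraries of L363-CFZr cells at 6 h and 24 h are also of different sets, so that time and set cannot be told apart there. Those of AMO1 cells at both times are of the same set.

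MYC RNA fell in AMO1 cells with NCP26 and with HFG at both times. At 6 h the DMSO libraries held 415, 423 and 432 CPM, the NCP26 libraries 203, 201 and 193 CPM and the HFG libraries 179.6, 175 and 180.1 CPM. Every treated library lay below every DMSO library, with log2 fold changes of −1.081 ± 0.094, adjusted p = 6.26e-06 for NCP26 and −1.21 ± 0.067, adjusted p = 1.22e-09 for HFG. At 24 h the DMSO libraries held 417, 415 and 429.6 CPM, the NCP26 libraries 222, 242 and 225 CPM and the HFG libraries 282, 257 and 277 CPM. Again the groups did not overlap (−0.88 ± 0.048, adjusted p = 5.02e-16 for NCP26 and −0.63 ± 0.052, adjusted p = 7.72e-09 for HFG). The fall with HFG was smaller at 24 h than at 6 h, the effect differing by 0.61 ± 0.079, adjusted p = 6.08e-06 (interaction test). For NCP26 the effects at the 2 times differed by 0.20 ± 0.10, adjusted p = 0.168, which did not pass the test. Across genes, which are not independent replicates, log2 fold changes went down as the GC content of transcripts went up, with r between −0.371 (NCP26, 6 h) and −0.130 (HFG, 24 h). Against the same DMSO libraries at 6 h, r was −0.496 with NCP22 and −0.455 with halofuginol. At 24 h it was 0.108 with NCP22 and −0.018 with halofuginol. With an offset for GC content the change of MYC was −0.93 for NCP26 and −1.06 for HFG at 6 h, and −0.80 and −0.54 at 24 h, each still called. After a term for set was added it was −0.85, adjusted p = 5.50e-08 for NCP26 and −0.61, adjusted p = 2.49e-05 for HFG at 24 h.

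CFZ left MYC close to its control. The CFZ libraries held 376, 366 and 381 CPM at 6 h and 395, 396 and 384 CPM at 24 h, in both cases below the DMSO libraries. The change at 6 h was called (−0.18 ± 0.061, adjusted p = 0.0320), but the call was lost on leaving out any 1 of the 6 libraries, with adjusted p up to 0.103. At 24 h it was not called (−0.085 ± 0.10, adjusted p = 0.558), nor without the library that stood apart (−0.11, adjusted p = 0.104). The NCP22 and halofuginol libraries of AMO1 cells ranged from 358 to 427 CPM of MYC, and none of their 4 comparisons with DMSO was called for it. The 95% intervals of the log2 differences were −0.13 to 0.12 at 6 h and −0.24 to 0.052 at 24 h for NCP22. For halofuginol they were −0.13 to 0.11 at 6 h and −0.21 to 0.020 at 24 h.

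In L363-CFZr cells the changes of MYC were small and ran in both directions. At 6 h the DMSO libraries held 413, 364 and 386 CPM, the NCP26 libraries 320.3, 361 and 318 CPM and the HFG libraries 339.7, 313 and 311 CPM. No treated library reached the lowest DMSO library, although the gap was narrow for NCP26. The change passed the test for HFG (−0.24 ± 0.062, adjusted p = 0.00225) and not for NCP26 (−0.20 ± 0.10, adjusted p = 0.179), where it was called without replicate 2 of NCP26 (adjusted p = 0.0136). The trend on GC content was steep with HFG at 6 h (r = −0.546 across genes). With the GC offset the change of MYC became −0.019, adjusted p = 0.816, and with a term for set −0.20, adjusted p = 0.192. Halofuginol at 6 h gave 444, 469.5 and 442 CPM, all above DMSO (0.22 ± 0.054, adjusted p = 0.00601). That call was lost without replicate 2 of halofuginol (adjusted p = 0.0613) and with a term for set (adjusted p = 0.116). The trend on GC content was steeper with halofuginol (r = −0.691 across genes). Of all genes, 25.8% were called there, and 3.11% with the GC offset, while the number of members called stayed the same. NCP22 gave 488, 444 and 443 CPM at 6 h, also above DMSO and not called (0.25 ± 0.068, adjusted p = 0.530).

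At 24 h the L363-CFZr DMSO libraries held 334, 326 and 327 CPM of MYC, NCP26 279, 285 and 315 CPM and HFG 394, 382 and 401 CPM. NCP26 thus lay below and HFG above the control, and neither passed the test (−0.16 ± 0.12, adjusted p = 0.498 for NCP26 and 0.25 ± 0.11, adjusted p = 0.294 for HFG). With the DMSO library that stood apart left out, the difference with HFG was called (0.25, adjusted p = 0.00125) and that with NCP26 was not (−0.17, adjusted p = 0.117). NCP22 and halofuginol lay above DMSO by about as much as HFG. NCP22 gave 403, 377 and 401 CPM (0.26 ± 0.11, adjusted p = 0.792) and halofuginol 383, 411 and 385 CPM (0.26 ± 0.12, adjusted p = 0.659). Without that DMSO library neither was called (0.26, adjusted p = 1.000 for NCP22 and 0.25, adjusted p = 0.530 for halofuginol).

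**Figure D1:**
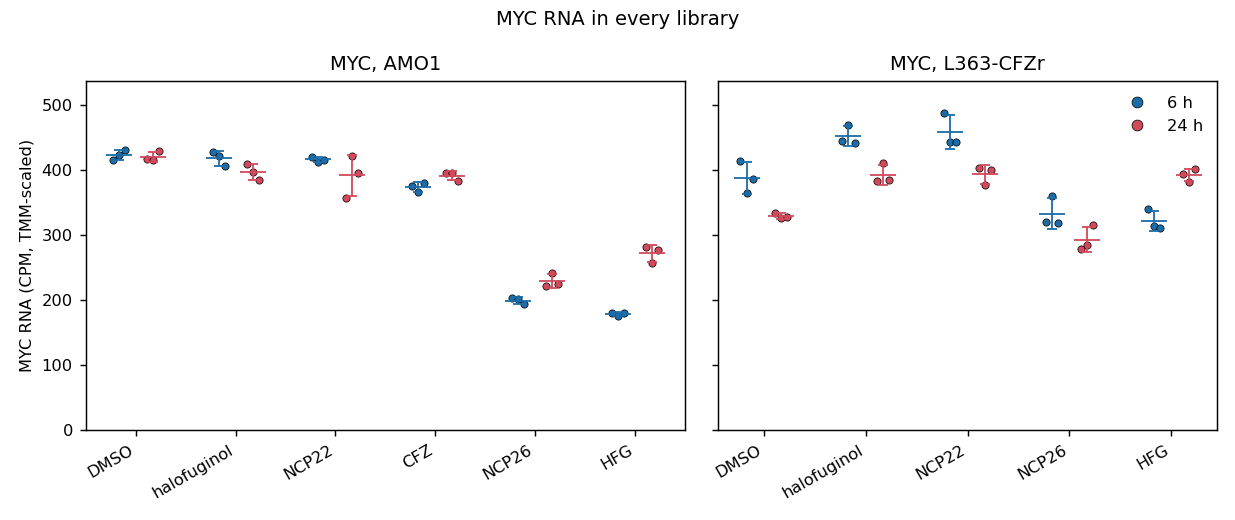
MYC RNA in CPM (TMM-scaled, linear axis from 0) in each of the 66 libraries, by line, time and treatment, with the mean and SD of each group of 3. The NCP26 and HFG libraries of AMO1 cells lie between 175 and 282 CPM, below every other library of that line, and the lowest L363-CFZr library stands at 279 CPM.

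Ordered by mean over all 22 groups, MYC ran from 458 ± 25.9 CPM (SD, n = 3) in L363-CFZr NCP22 at 6 h to 178 ± 2.68 CPM in AMO1 HFG at 6 h, a ratio of 2.57. The lowest 4 groups were AMO1 HFG at 6 h, NCP26 at 6 h (199 ± 5.02 CPM), NCP26 at 24 h (229.9 ± 10.9 CPM) and HFG at 24 h (272 ± 13.3 CPM), and no libraries overlapped between them. The next group up, L363-CFZr NCP26 at 24 h, stood at 293 ± 19.3 CPM and overlapped AMO1 HFG at 24 h. Of the 21 steps between neighbours in the order, 15 overlapped and 6 did not. MXD1 had a wider range, from 152 ± 4.14 CPM in AMO1 CFZ at 6 h to 10.3 ± 1.34 CPM in L363-CFZr halofuginol at 6 h, a ratio of 14.8.

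MAX, the partner that MYC and its antagonists share, passed the test in 1 of the 18 comparisons with DMSO. In AMO1 cells at 24 h it was 53.2, 60.01 and 59.3 CPM with DMSO and 73.9, 71.1 and 75.6 CPM with NCP26, without overlap (0.34 ± 0.082, adjusted p = 0.000761). This became 0.49, adjusted p = 0.0222 with a term for set. Over all 18 comparisons its log2 fold changes lay between −0.13 and 0.34.

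MXD1 showed the largest changes among the repressors, and they came early. At 6 h in AMO1 cells the DMSO libraries held 35.7, 30.1 and 32.6 CPM, NCP26 53.7, 58.3 and 62.8 CPM, HFG 74.1, 80.1 and 76.3 CPM and CFZ 147, 152 and 156 CPM. All treated libraries lay above all DMSO libraries. The rise was largest with CFZ (2.20 ± 0.094, adjusted p = 5.74e-14), followed by HFG (1.26 ± 0.10, adjusted p = 6.73e-08) and NCP26 (0.84 ± 0.12, adjusted p = 0.000259). By 24 h the DMSO libraries had reached 65.7, 68.5 and 54.9 CPM, and the treatments no longer ran in one direction. NCP26 was higher with 86.1, 77.3 and 82.3 CPM (0.39 ± 0.087, adjusted p = 0.000318) and HFG lower with 54.1, 46.8 and 45.8 CPM (−0.37 ± 0.11, adjusted p = 0.00637). CFZ gave 72.9, 67.1 and 65.4 CPM and did not pass the test (0.14 ± 0.12, adjusted p = 0.428). From 6 h to 24 h the effect moved by −2.08 ± 0.15, adjusted p = 1.30e-06 for CFZ, by −1.60 ± 0.15, adjusted p = 9.24e-08 for HFG and by −0.46 ± 0.15, adjusted p = 0.0434 for NCP26 (interaction tests), the last of which was lost in 9 of 12 refits that left out 1 library. For CFZ it was −2.06, adjusted p = 3.36e-10 without the library that stood apart. With a term for set the changes at 24 h were 0.52, adjusted p = 0.0830 for NCP26 and −0.23, adjusted p = 0.468 for HFG, neither called.

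Halofuginol at 6 h gave 42.7, 42.3 and 45.7 CPM of MXD1 in AMO1 cells, above DMSO in every library (0.41 ± 0.11, adjusted p = 0.0472). The call was lost in 5 of the 6 refits that left out 1 library, with adjusted p up to 0.199. In L363-CFZr cells, where MXD1 is scarce, HFG at 6 h gave 21.8, 22.4 and 21.4 CPM against 12.8, 14.3 and 13.96 CPM with DMSO, without overlap (0.70 ± 0.15, adjusted p = 0.000333). NCP26 gave 16.8, 13.6 and 17.6 CPM, which overlapped DMSO and did not pass the test (0.25 ± 0.17, adjusted p = 0.336). With a term for set the change with HFG in L363-CFZr cells was 0.53, adjusted p = 0.254.

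MXI1 changed in opposite directions at the 2 times with NCP26 in AMO1 cells. At 6 h it stood at 108, 103 and 112 CPM with DMSO, 75.2, 78.1 and 72.8 CPM with NCP26, 81.4, 65.97 and 71.9 CPM with HFG and 87.4, 74.02 and 81.1 CPM with CFZ. All treated libraries lay below DMSO (−0.51 ± 0.10, adjusted p = 0.00155 for NCP26, −0.53 ± 0.093, adjusted p = 0.000171 for HFG and −0.42 ± 0.088, adjusted p = 0.000969 for CFZ). At 24 h it stood at 209, 226 and 212 CPM with DMSO and 281, 279 and 250.5 CPM with NCP26, now above every DMSO library (0.32 ± 0.055, adjusted p = 1.01e-05). HFG gave 153, 176 and 176 CPM (−0.35 ± 0.066, adjusted p = 0.000156) and CFZ 115, 113 and 117 CPM (−0.89 ± 0.10, adjusted p = 0.000499), both below DMSO. From 6 h to 24 h the effect of NCP26 moved by 0.82 ± 0.11, adjusted p = 6.38e-05 and that of CFZ by −0.48 ± 0.13, adjusted p = 0.0149 (interaction tests), the latter being −0.48, adjusted p = 0.00245 without the library that stood apart. The 24 h changes were of about the same size and not called with a term for set (0.32, adjusted p = 0.225 for NCP26 and −0.35, adjusted p = 0.169 for HFG). Within the set that holds these treated libraries, MXI1 was higher with NCP26 than with NCP22 (0.41 ± 0.10, adjusted p = 0.00328) and lower with HFG than with halofuginol (−0.55 ± 0.079, adjusted p = 1.13e-05).

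In L363-CFZr cells MXI1 was 88.5, 111 and 79.1 CPM with DMSO and 103, 115 and 112 CPM with HFG at 6 h, which was called higher (0.29 ± 0.10, adjusted p = 0.0119) although the groups overlapped. The call was lost with the GC offset (0.073, adjusted p = 0.529), and without replicate 3 of DMSO or replicate 2 of HFG (adjusted p up to 0.119). NCP26 at 24 h gave 240.4, 280.5 and 244 CPM against 198, 139 and 191 CPM, with no overlap and no call (0.54 ± 0.17, adjusted p = 0.102). Without replicate 2 of DMSO, the lowest of the 3, it was called (0.40, adjusted p = 0.00436).

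MXD3, known from dividing cells, fell in AMO1 cells at 6 h with NCP26, HFG and CFZ. DMSO libraries held 16.9, 15.7 and 14.9 CPM, NCP26 10.2, 10.2 and 7.15 CPM, HFG 8.44, 9.08 and 9.55 CPM and CFZ 10.7, 9.80 and 8.14 CPM. No treated library reached DMSO (−0.78 ± 0.21, adjusted p = 0.0110 for NCP26, −0.76 ± 0.18, adjusted p = 0.00220 for HFG and −0.74 ± 0.20, adjusted p = 0.00798 for CFZ). At 24 h NCP26 gave 8.14, 5.54 and 7.89 CPM against 22.01, 13.5 and 19.8 CPM with DMSO (−1.33 ± 0.22, adjusted p = 3.76e-06), the largest change of MXD3 among the 18 comparisons with DMSO. HFG gave 9.01, 14.1 and 9.29 CPM, which overlapped DMSO (−0.75 ± 0.23, adjusted p = 0.00905), and this call was lost without replicate 3 of HFG (adjusted p = 0.0659). With the GC offset the call for NCP26 at 6 h was lost (−0.48, adjusted p = 0.0944). In L363-CFZr cells at 6 h MXD3 was 7.89, 11.6 and 14.4 CPM with DMSO, 16.6, 19.5 and 13.5 CPM with NCP26 and 13.2, 17.2 and 14.5 CPM with HFG, overlapping and not called, though HFG was without replicate 3 of DMSO (adjusted p = 0.0252). There the GC offset made the difference a called rise, for NCP26 (0.75, adjusted p = 0.0394) and for HFG (0.75, adjusted p = 0.00334).

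MXD4, a family member linked to differentiation, was 38.5, 37.3 and 41.7 CPM with DMSO and 26.6, 28.7 and 28.5 CPM with NCP26 in AMO1 cells at 24 h, without overlap (−0.498 ± 0.11, adjusted p = 0.000330). With HFG it was lower at 6 h (−0.36 ± 0.12, adjusted p = 0.0200) and at 24 h (−0.28 ± 0.12, adjusted p = 0.0495). The call at 6 h was lost without replicate 3 of HFG or replicate 1 of DMSO (adjusted p up to 0.0820), and that at 24 h without any of 4 libraries (replicates 1 and 3 of HFG and of DMSO, adjusted p up to 0.305). CFZ at 6 h moved it the other way, to 54.5, 50.1 and 52.1 CPM from 42.3, 39.2 and 36.9 CPM (0.40 ± 0.11, adjusted p = 0.0101). In L363-CFZr cells HFG at 6 h gave 45.1, 39.9 and 37.01 CPM against 47.7, 48.4 and 67.5 CPM (−0.42 ± 0.12, adjusted p = 0.00607). This became −0.069, adjusted p = 0.656 with the GC offset and −0.21 (adjusted p = 0.143) without replicate 3 of DMSO. NCP26 at 6 h did not pass the test (−0.46 ± 0.16, adjusted p = 0.0656), but did without its replicate 2 (adjusted p = 0.00505).

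MNT, a repressor made by most cells, was 27.5, 28.3 and 22.7 CPM with DMSO and 14.6, 20.7 and 17.2 CPM with HFG in AMO1 cells at 24 h, all below DMSO (−0.55 ± 0.16, adjusted p = 0.00675). NCP26 gave 30.4, 21.2 and 27.02 CPM, which overlapped (0.017 ± 0.14, adjusted p = 0.926), and NCP26 and HFG differed from each other (0.55 ± 0.18, adjusted p = 0.0155), though not without replicate 3 of HFG or replicate 1 of NCP26 (adjusted p up to 0.0824). At 6 h MNT did not pass the test with NCP26 (−0.45 ± 0.25, adjusted p = 0.169) or HFG (−0.43 ± 0.20, adjusted p = 0.0741), but it did without replicate 3 of NCP26 (adjusted p = 0.0283) or of HFG (adjusted p = 0.0418). With CFZ at 24 h the libraries held 16.5, 39.4 and 19.8 CPM, the high value belonging to the library that stood apart. The change of −0.032 ± 0.31, adjusted p = 0.949 became −0.51, adjusted p = 0.0203 without it. Likewise L363-CFZr DMSO at 24 h held 17.5, 32.9 and 15.7 CPM, again with the high value in the library that stood apart. With that library left out, MNT was called in none of the L363-CFZr comparisons with DMSO at 24 h (edgeR, adjusted p of 0.0712 or more).

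MLX, whose dimers act at glucose-response genes, was 84.2, 83.8 and 86.5 CPM with NCP26 and 68.6, 73 and 68.6 CPM with DMSO in AMO1 cells at 24 h, without overlap (0.27 ± 0.077, adjusted p = 0.00303). This call was lost with a term for set (0.32, adjusted p = 0.233). CFZ at 6 h gave 69.96, 64.6 and 66.8 CPM against 86.3, 93.1 and 68.4 CPM, which was called lower (−0.31 ± 0.11, adjusted p = 0.0341) with overlapping groups, and 5 of 6 refits that left out 1 library did not make the call (adjusted p up to 0.200). It was called in none of the 8 comparisons of L363-CFZr cells with DMSO (edgeR, adjusted p of 0.0827 or more). At 6 h it was called there without replicate 2 of NCP26 (adjusted p = 0.0202) and, with HFG, without replicate 1 of HFG (adjusted p = 0.0454).

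**Figure D2:**
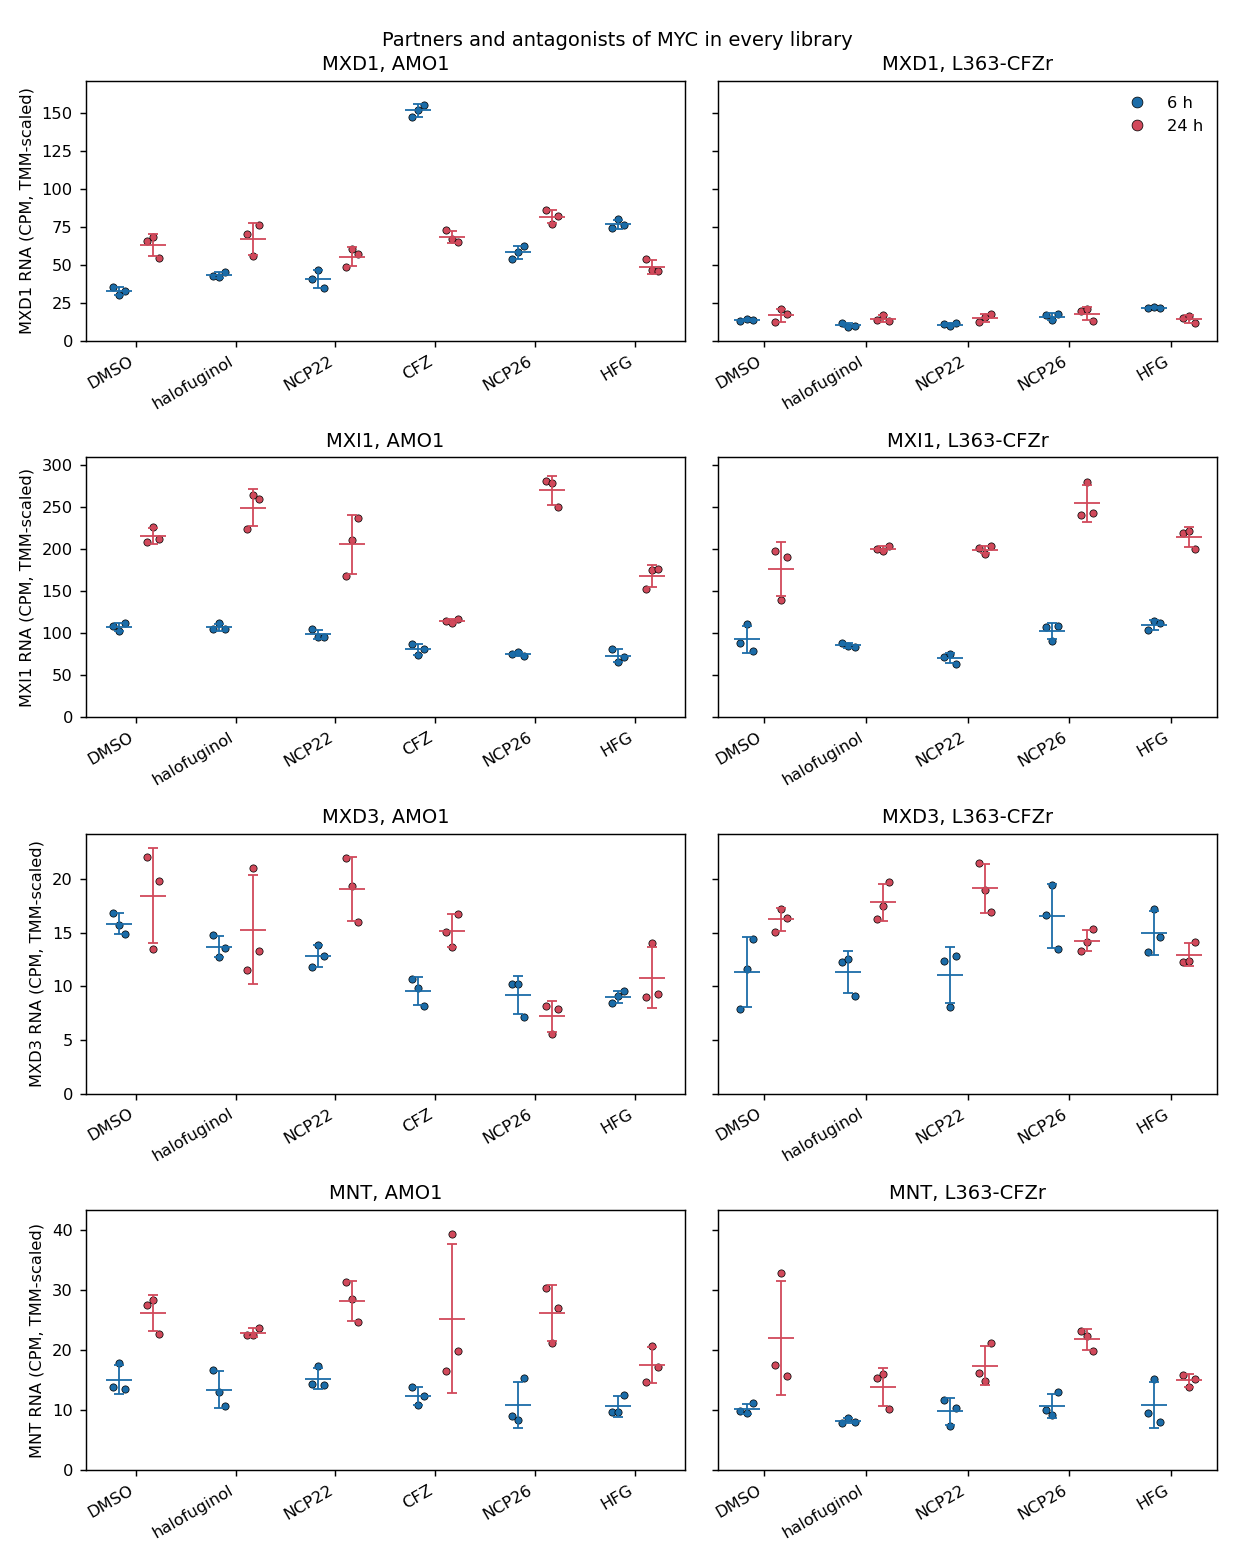
RNA of MXD1, MXI1, MXD3 and MNT in CPM (TMM-scaled, linear axes from 0) in each library of AMO1 and L363-CFZr cells at 6 h and 24 h, with the mean and SD of each group of 3. MXD1 peaks in AMO1 CFZ at 6 h (152 ± 4.14 CPM) and stays at or below 22.4 CPM in L363-CFZr cells, and MXI1 is higher at 24 h than at 6 h in DMSO.

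Counts of calls over the 8 members are read beside the share of all genes called, and all treatments of a line and time share their 3 DMSO libraries. In AMO1 cells NCP26 changed 4 of 8 members at 6 h, where 37.3% of all genes were called, and 7 of 8 at 24 h against 60.7%. HFG changed 5 of 8 at 6 h against 54.3%, and 6 of 8 at 24 h against 59%. CFZ changed 6 of 8 at 6 h against 26.9%, but 4 to 5 of 8 in the refits that left out 1 library, against 20.7% to 27.5%. At 24 h it changed 1 of 8, MXI1, against 27%. Leaving out the CFZ library that stood apart gave 3 of 8, namely MNT, MXD4 and MXI1, against 48.2%. Halofuginol changed 1 of 8 at 6 h against 3.62% and 0 of 8 at 24 h against 0.183%. NCP22 changed 0 of 8 at 6 h against 13.5% and 0 of 8 at 24 h against 0%. In L363-CFZr cells HFG changed 4 of 8 at 6 h against 54.5%, and halofuginol 1 of 8 against 25.8%. NCP26 changed 0 of 8 at 6 h and at 24 h, against 18.8% and 7.09%, and 3 of 8 at 6 h without its replicate 2, namely MYC, MXD4 and MLX, against 36.7%. HFG and halofuginol at 24 h and NCP22 at both times also changed 0 of 8, against 1.17%, 0%, 0% and 0%. When the L363-CFZr DMSO library that stood apart was left out, 1 of 8 was called at 24 h for each of NCP26 (MXI1) and HFG (MYC), beside 28.6% and 19.5% of all genes. For NCP22 and halofuginol at 24 h it remained 0 of 8. For the counts of 0, edgeR gave an unadjusted p under 0.05 for 1 member with AMO1 halofuginol at 24 h, beside 1129 of 10943 genes. It did so for 1 and 1 with AMO1 NCP22 at 6 h and 24 h, beside 3112 of 10693 and 638 of 10781 genes. With L363-CFZr NCP26 at 6 h and 24 h this number was 2 and 1, beside 3609 of 10701 and 2443 of 10676 genes. In L363-CFZr cells at 24 h it was 1 for HFG (1735 of 10469 genes) and 0 for halofuginol (410 of 10531 genes). For NCP22 there it was 2 and 0 at 6 h and 24 h, beside 666 of 10235 and 213 of 10727 genes. DESeq2 likewise called 0 members in these 9 comparisons. Over all comparisons it gave an adjusted p to 310 of the 328 member tests, so that a 0 may include tests without one. No gene tested alone by exact permutation of 3 against 3 could reach a p below 0.10, so that all calls rest on the spread estimated across genes.

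Separation of the libraries was counted in the same way, as the number of members whose treated and DMSO libraries did not overlap, with the share of all tested genes in brackets. In AMO1 cells it was 4 of 8 (49.1%) at 6 h and 7 of 8 (63.6%) at 24 h for NCP26, 6 of 8 (60.3%) and 6 of 8 (63.6%) for HFG, and 6 of 8 (39.8%) and 3 of 8 (46.8%) for CFZ. It was 2 of 8 (31.5%) and 1 of 8 (12.3%) for NCP22 and 2 of 8 (22.8%) and 1 of 8 (15.4%) for halofuginol. In L363-CFZr cells it was 3 of 8 (38.9%) and 2 of 8 (31.8%) for NCP26, 4 of 8 (59.4%) and 3 of 8 (30.5%) for HFG, 3 of 8 (11.3%) and 1 of 8 (9.7%) for NCP22, and 3 of 8 (39.8%) and 1 of 8 (18.6%) for halofuginol. MYC was separated from DMSO in all 8 comparisons of L363-CFZr cells, but in 2 of these 8 it passed the test.

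**Figure D3:**
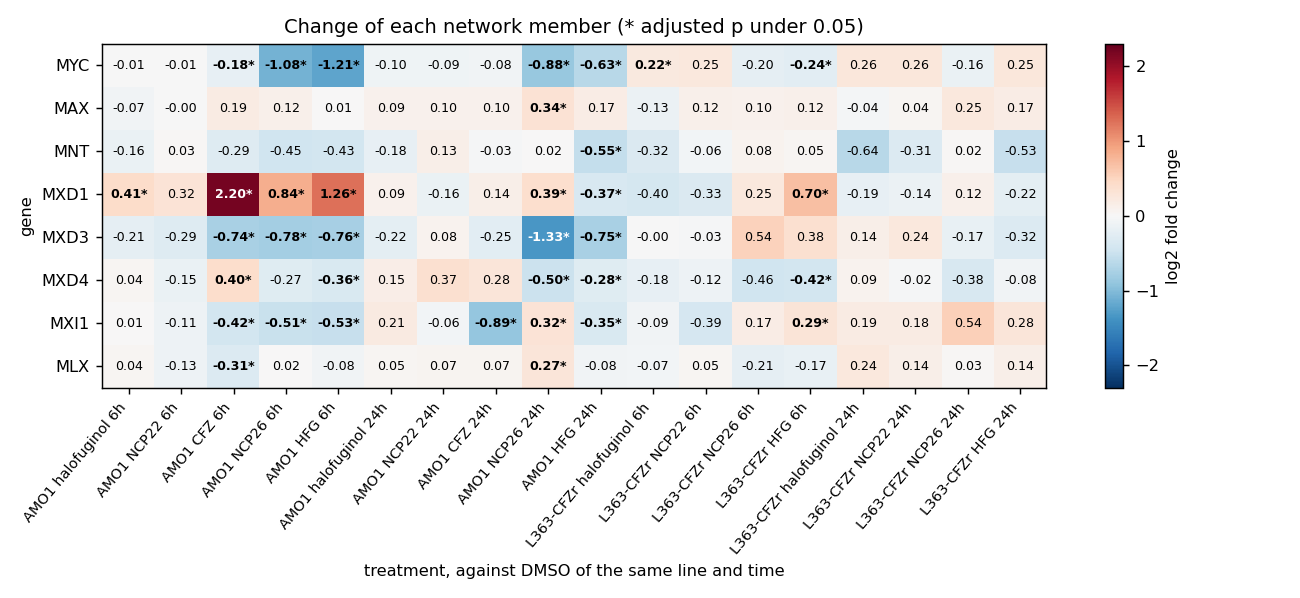
Log2 fold change of each of the 8 members (rows) in each of the 18 comparisons with DMSO of the same line and time (columns), coloured from blue (lower) to red (higher), with the value printed and an asterisk at an adjusted p under 0.05 (edgeR, 3 libraries against 3). MYC is lowest in the 4 AMO1 columns of NCP26 and HFG, and MXD1 has both the highest value, with CFZ at 6 h, and a fall with HFG at 24 h.

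The compounds were compared directly at the same dose, time and line. NCP26 was set against NCP22, HFG against halofuginol, its analogue with an alcohol in place of the ketone, and NCP26 against HFG. This gave 12 fits and 96 tests of members, with p-values adjusted over all genes of a fit. The fits hold no DMSO libraries, and those of AMO1 cells lie within 1 set at each time. In AMO1 cells MYC was lower with NCP26 than with NCP22 at 6 h (−1.04 ± 0.082, adjusted p = 5.52e-06) and 24 h (−0.76 ± 0.072, adjusted p = 1.25e-06). The same direction was called in L363-CFZr cells at 6 h (−0.46 ± 0.10, adjusted p = 0.00925) and 24 h (−0.42 ± 0.079, adjusted p = 0.000949). The 6 h call in L363-CFZr cells, where 1 of the 3 NCP22 libraries is of another set, was lost without replicate 1 of NCP22 or of NCP26 (adjusted p up to 0.0629). MYC was lower with HFG than with halofuginol in AMO1 cells at 6 h (−1.21 ± 0.052, adjusted p = 5.97e-12) and 24 h (−0.53 ± 0.064, adjusted p = 1.40e-06), and in L363-CFZr cells at 6 h (−0.46 ± 0.041, adjusted p = 2.62e-10). At 24 h in L363-CFZr cells HFG gave 394, 382 and 401 CPM and halofuginol 383, 411 and 385 CPM, with a 95% interval of −0.12 to 0.11 for the log2 difference.

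Between NCP26 and NCP22, 3 of 8 members were called at 6 h and 6 of 8 at 24 h in AMO1 cells, against 24.7% and 52% of all genes. In L363-CFZr cells the counts were 2 and 2 of 8, against 20.4% and 34.1%, and the members called were MYC and MXI1 at both times. Leaving out replicate 2 of NCP26 gave 5 of 8 at 6 h beside 33.6%, and leaving out replicate 3 of NCP22 gave 4 of 8 at 24 h beside 27%. At 6 h the count was 1 of 8 without replicate 1 or 3 of NCP22 or replicate 1 of NCP26. MXI1 was higher with NCP26 than with NCP22 there (0.55 ± 0.12, adjusted p = 0.00998 at 6 h and 0.36 ± 0.083, adjusted p = 0.00450 at 24 h), the 6 h call being lost without replicate 3 of NCP22 (adjusted p = 0.0627). MXD4 in AMO1 cells at 24 h was 26.6, 28.7 and 28.5 CPM with NCP26 and 44.3, 52.7 and 54.1 CPM with NCP22 (−0.84 ± 0.11, adjusted p = 2.91e-05). Between HFG and halofuginol 5 of 8 were called at 6 h and 4 of 8 at 24 h in AMO1 cells, against 51.7% and 56.6% of all genes. In L363-CFZr cells the counts were 5 and 0 of 8, against 47.3% and 21.9%. With replicate 3 of halofuginol left out, 3 of 8 were called at 6 h beside 42.9%. MXD1 at 6 h was higher with HFG than with halofuginol in AMO1 (0.85 ± 0.084, adjusted p = 2.68e-07) and in L363-CFZr cells (1.101 ± 0.14, adjusted p = 2.67e-07). At 24 h it was lower with HFG in AMO1 cells (−0.46 ± 0.12, adjusted p = 0.00427). MXI1 at 6 h was lower with HFG than with halofuginol in AMO1 cells (−0.54 ± 0.080, adjusted p = 2.48e-05) and higher in L363-CFZr cells (0.38 ± 0.062, adjusted p = 6.99e-06), within 1 set in each line.

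NCP26 and HFG gave 0 of 8 calls between them at 6 h in either line, against 0.26% of all genes in AMO1 and 0% in L363-CFZr cells, where the treatments are of different sets. At an unadjusted p under 0.05 edgeR gave 1 and 1 of 8 members, beside 1416 of 10749 genes in AMO1 and 1188 of 10688 in L363-CFZr cells. DESeq2 called 0 of the members to which it gave an adjusted p. For MYC at 6 h the 95% interval of the log2 difference was −0.025 to 0.33 in AMO1 and −0.16 to 0.24 in L363-CFZr cells. At 24 h they differed in 5 of 8 members in AMO1 cells, against 44.9% of all genes. MYC was lower with NCP26 than with HFG (−0.25 ± 0.058, adjusted p = 0.00158). MXD1 (0.75 ± 0.095, adjusted p = 4.27e-06), MXI1 (0.66 ± 0.066, adjusted p = 2.30e-07), MLX (0.34 ± 0.082, adjusted p = 0.00228) and MNT, as given above, were higher. In L363-CFZr cells 3 of 8 differed at 24 h against 12.9%. MYC was lower with NCP26 (−0.41 ± 0.062, adjusted p = 0.000935), and MNT (0.55 ± 0.15, adjusted p = 0.0256) and MXI1 (0.26 ± 0.073, adjusted p = 0.0319) were higher. The calls for MNT and MXI1 in L363-CFZr cells were lost without any 1 of the HFG libraries or replicate 2 of NCP26.

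The effect on MYC against DMSO differed between the lines in all 4 tests made. With a block for replicate number, that of NCP26 at 24 h did not pass. In L363-CFZr cells mean MYC with DMSO (388 CPM at 6 h and 329 CPM at 24 h) lay below NCP22 (458 and 393 CPM) and halofuginol (452 and 393 CPM). A difference between the lines against those compounds was not tested. With NCP26 the effect in L363-CFZr minus that in AMO1 cells was 0.86 ± 0.13, adjusted p = 0.000798 at 6 h and 0.69 ± 0.12, adjusted p = 0.00675 at 24 h (interaction in edgeR). With HFG it was 0.98 ± 0.086, adjusted p = 4.08e-08 at 6 h and 0.88 ± 0.11, adjusted p = 0.000257 at 24 h. Without the L363-CFZr DMSO library that stood apart, the 24 h values were 0.68, adjusted p = 1.03e-05 for NCP26 and 0.88, adjusted p = 8.70e-10 for HFG. MXD3 differed with NCP26 at 6 h (1.299 ± 0.32, adjusted p = 0.0374) and 24 h (1.14 ± 0.29, adjusted p = 0.0391), and for HFG at 6 h (1.15 ± 0.27, adjusted p = 0.00485). MXI1 differed with NCP26 at 6 h (0.66 ± 0.17, adjusted p = 0.0457), and for HFG at 6 h (0.83 ± 0.15, adjusted p = 0.000345) and 24 h (0.63 ± 0.17, adjusted p = 0.0223). MXD1 differed with HFG at 6 h (−0.56 ± 0.16, adjusted p = 0.0179), rising more in AMO1 cells. The latter call was lost without replicate 3 of L363-CFZr DMSO (adjusted p = 0.0518), and that of MXI1 with HFG at 24 h without any of 4 libraries (adjusted p up to 0.0609). The calls for MXD3 and MXI1 with NCP26 at 6 h and for MXD3 at 24 h were lost in 9 or 10 of 12 refits that left out 1 library, with adjusted p up to 0.124. Calls numbered 3 of 8 for NCP26 at 6 h (2.71% of all genes) and 2 of 8 at 24 h (5.41%), and 4 of 8 for HFG at 6 h (20.7%) and 2 of 8 at 24 h (16.9%). None of them concerned MAX, MNT, MXD4 or MLX. At 24 h, without the L363-CFZr DMSO library that stood apart, MLX was called for NCP26 (−0.41, adjusted p = 0.0134). This made 3 of 8 beside 21.1% of all genes, with MXD3 at 1.17, adjusted p = 0.00747. For HFG 2 of 8 were called beside 33.4%, with MXI1 at 0.49, adjusted p = 0.000173. Between 6 h and 24 h in AMO1 cells, 2 of 8 effects differed for each of NCP26, HFG and CFZ, against 17.5%, 39.6% and 19.6% of all genes.

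**Figure D4:**
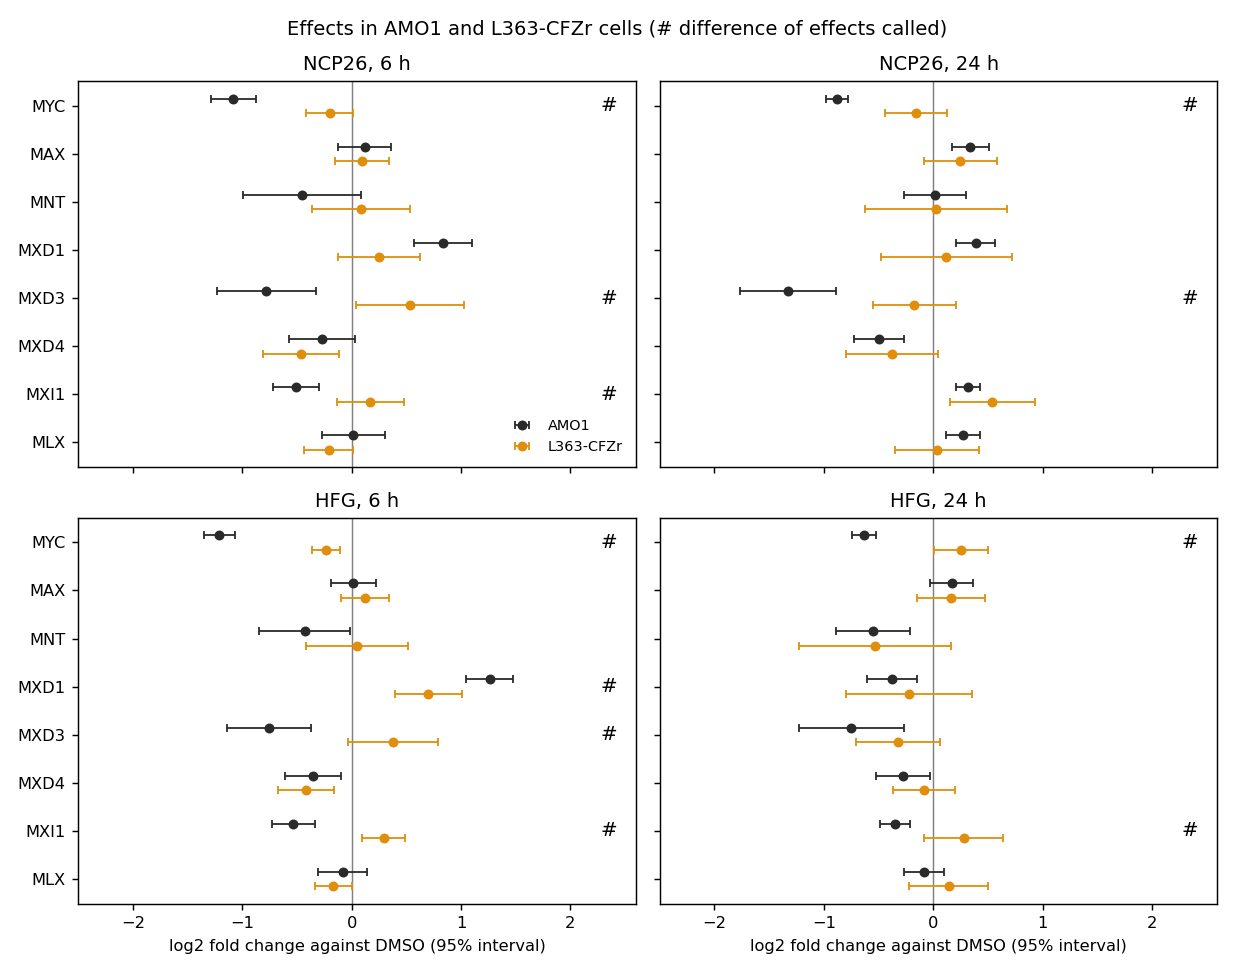
Log2 fold change against DMSO with its 95% interval (horizontal axis) for each member (rows) in AMO1 (black) and L363-CFZr cells (orange), with NCP26 above and HFG below, at 6 h (left) and 24 h (right). A # marks members whose effects differ between the lines at an adjusted p under 0.05, as MYC does in all 4 panels, and the intervals of L363-CFZr at 24 h include the DMSO library that stood apart.

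Genes known to be activated by MYC were followed as a list of 61, most of them of ribosome biogenesis, nucleotide synthesis and cell growth. In AMO1 cells NCP26 gave 43 lower and 2 higher at 6 h (median −0.58, beside 19.2% of all genes lower) and 46 lower and 1 higher at 24 h (median −0.61, beside 30.9% of all genes lower). HFG gave 44 lower and 2 higher at 6 h (median −0.57, beside 26.6% of all genes lower) and 27 lower and 6 higher at 24 h (median −0.17, beside 30.5% of all genes lower). CFZ gave 14 lower and 9 higher at 6 h (median −0.093, beside 12.8% of all genes lower) and 5 lower and 10 higher at 24 h (median 0.16, beside 14% of all genes lower). In L363-CFZr cells NCP26 gave 19 lower and 2 higher at 6 h (median −0.29, beside 8.99% of all genes lower) and 8 lower and 1 higher at 24 h (median −0.20, beside 4.38% of all genes lower). HFG gave 37 lower and 5 higher at 6 h there (median −0.34, beside 27.5% of all genes lower) and 1 lower and 0 higher at 24 h (median 0.014, beside 0.573% of all genes lower). The medians of all genes in these 10 comparisons lay between −0.016 and 0.015. Counts of the list were made in the main fits alone, with no GC offset and no term for set. Those of L363-CFZr cells at 24 h include the DMSO library that stood apart, without which more of all genes were called. A low count there therefore does not show that the list was unmoved. Plasma cell markers fell in the same AMO1 libraries at 6 h, 7 of 10 lower and 1 higher with each of NCP26 (median −0.69) and HFG (median −0.84). Beside them 19.2% and 26.6% of all genes were lower, and the part of these markers in the results was not tested.

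The targets that fell most at 6 h in AMO1 cells included HK2, a hexokinase of glycolysis, MYBBP1A, a nucleolar protein, and PHB1, a mitochondrial prohibitin. HK2 changed by −1.99 ± 0.11 with NCP26 and −2.32 ± 0.090 with HFG. MYBBP1A changed by −1.52 ± 0.15 and −1.64 ± 0.12, and PHB1 by −1.45 ± 0.12 and −1.75 ± 0.086, each with an adjusted p of 1.48e-05 or less. They were followed by the folate carrier SLC19A1 with NCP26 (−1.26 ± 0.14) and by the replication factor MCM5 with HFG (−1.25 ± 0.083). At 24 h NCP26 lowered SLC19A1 (−1.99 ± 0.15), the nucleoside carrier SLC29A2 (−1.90 ± 0.25), the uracil-DNA glycosylase UNG (−1.66 ± 0.11) and TMEM97 (−1.57 ± 0.12). HFG at 24 h lowered MCM5 (−1.75 ± 0.10), SLC19A1 (−1.57 ± 0.14) and HK2 (−1.47 ± 0.062), and SLC29A2 fell by 1.4998 on that scale. With CFZ at 6 h the largest changes were rises of HSPD1 (2.45 ± 0.045) and HSPE1 (1.92 ± 0.065), which encode mitochondrial chaperonins and are also heat shock genes. In L363-CFZr cells at 6 h MYBBP1A changed by −0.86 ± 0.20 with NCP26 and −1.05 ± 0.10 with HFG, and MCM5 by −0.79 ± 0.12 and −0.90 ± 0.11. MAP3K6, a stress kinase, changed by −0.88 ± 0.19 and −0.89 ± 0.20, and GRWD1, a ribosome assembly factor, by −0.74 ± 0.11 and −0.83 ± 0.10. The E-box was held by 19 of 35 (54.3%) matched targets that fell and by 7 of 16 (43.8%) that did not with NCP26 in AMO1 cells at 6 h, and HFG gave the same counts. In L363-CFZr cells at 6 h it was held by 8 of 14 (57.1%) matched targets that fell and by 18 of 37 (48.6%) that did not with NCP26. With HFG there the order was the other way round, the motif being held by 15 of 31 (48.4%) matched targets that fell and by 11 of 20 (55%) that did not, and no test was made of these shares.

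**Figure D5:**
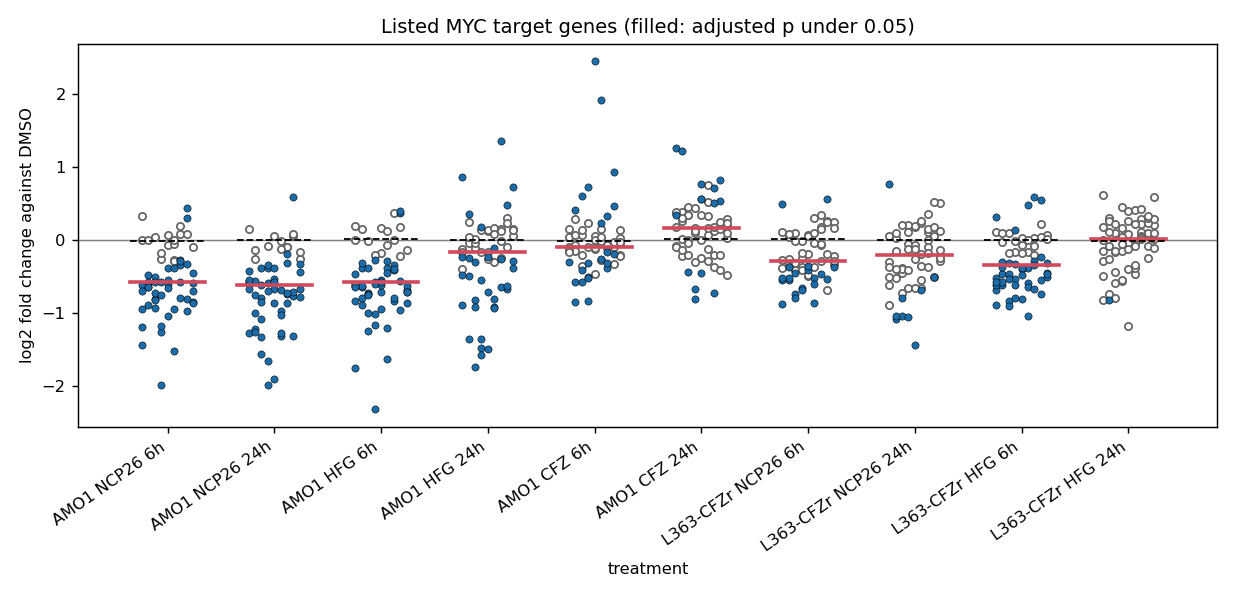
Log2 fold change against DMSO of each of the 61 listed MYC targets (points, filled where the adjusted p is under 0.05) in 10 comparisons, with the median of the list (red line) and of all tested genes (dashed line). The list lies lowest in AMO1 NCP26 at 24 h, with a median of −0.61, and near 0 in L363-CFZr HFG at 24 h, with 0.014. The L363-CFZr comparisons at 24 h include the DMSO library that stood apart.

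Of 5 genes known to be repressed by MYC, 3 were lower and 1 was higher in AMO1 cells at 6 h with NCP26, and likewise with HFG, beside 37.3% and 54.3% of all genes called. CDKN1A, an inhibitor of cyclin-dependent kinases that p53 induces, changed by −2.61 ± 0.10 with NCP26 and −2.77 ± 0.089 with HFG. NDRG1, a stress-responsive gene, changed by −2.02 ± 0.10 and −1.98 ± 0.11, and CDKN1B, another such inhibitor, by −0.57 ± 0.12 and −0.60 ± 0.074. CDKN2B, an inhibitor of CDK4 and CDK6, rose (1.27 ± 0.31 and 1.28 ± 0.27), and the DNA damage gene GADD45A did not pass the test (0.16 ± 0.14, adjusted p = 0.356, and 0.042 ± 0.13, adjusted p = 0.812). In L363-CFZr cells at 6 h NCP26 and HFG raised CDKN1A (1.17 ± 0.22 and 0.97 ± 0.23) and GADD45A (1.45 ± 0.25 and 1.37 ± 0.21). CFZ raised both in AMO1 cells at 6 h (0.80 ± 0.064 for CDKN1A and 1.26 ± 0.12 for GADD45A). Of all genes, 18.8% (L363-CFZr NCP26), 54.5% (L363-CFZr HFG) and 26.9% (AMO1 CFZ) were called in these comparisons. Changes of NDRG1, CDKN1B and CDKN2B in them are not given here. The difference between the lines was not tested for any of the 5 genes.

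Other members of the wider network were few. MYCN, MYCL and MLXIPL did not pass the filter with NCP26 in AMO1 cells at 6 h. MGA, a large MAX-binding repressor, rose with NCP26 (0.43 ± 0.16, adjusted p = 0.0497) and HFG (0.46 ± 0.10, adjusted p = 0.00129). MLXIP, a partner of MLX, changed by −0.18 ± 0.14 (adjusted p = 0.326) with NCP26 and by −0.41 ± 0.13 (adjusted p = 0.0131) with HFG. ARRDC4, which MLX and MLXIP are known to drive, rose with NCP26 in L363-CFZr cells at 6 h (1.05 ± 0.33, adjusted p = 0.0480). That call lies near the threshold and was not refitted without single libraries. Changes of ARRDC4 in the other comparisons are not given here. TXNIP, the other gene of that list, was not analysed here. Of 10 genes of the SIN3-HDAC complex, 5 were lower and 1 higher with NCP26 in AMO1 cells at 6 h (median −0.26), and 6 and 1 with HFG (median −0.34). Of all genes, 37.3% and 54.3% were called in these comparisons. SAP30 changed by −0.71 ± 0.12 with NCP26 and −0.93 ± 0.11 with HFG, RBBP4 by −0.55 ± 0.10 and −0.61 ± 0.084, and SAP18 by −0.36 ± 0.13 and −0.44 ± 0.092. HDAC2 changed by −0.35 ± 0.10 and −0.37 ± 0.087 and RBBP7 by −0.26 ± 0.092 and −0.56 ± 0.072, all called, whereas ARID4B rose (0.58 ± 0.14 and 0.96 ± 0.10). HDAC1 changed by −0.26 ± 0.11 (adjusted p = 0.0886) with NCP26 and −0.30 ± 0.082 (adjusted p = 0.00569) with HFG. SIN3A, SIN3B and SUDS3 were called with neither agent, with log2 fold changes from −0.25 to 0.24.

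Cofactors that bind MYC moved in both directions in AMO1 cells at 6 h, with 5 lower and 2 higher of 14 for NCP26 (median −0.037) and 5 lower and 5 higher of 14 for HFG (median 0.017). These are 7 and 10 of 14, beside 37.3% and 54.3% of all genes. The acetyltransferases CREBBP (1.17 ± 0.11 and 1.34 ± 0.10) and EP300 (0.68 ± 0.15 and 1.07 ± 0.11) rose. ACTL6A, a subunit of chromatin remodellers (−0.71 ± 0.11), and KAT2A, an acetyltransferase (−0.67 ± 0.11), led the falls with NCP26, and the helicases RUVBL1 (−0.75 ± 0.10) and RUVBL2 (−0.69 ± 0.084) those with HFG. Genes that act on the stability of MYC protein gave 3 lower and 2 higher of 12 for NCP26 and 4 lower and 6 higher of 12 for HFG, or 5 and 10 of 12 beside the same shares. SKP2, a ubiquitin ligase subunit, fell (−0.63 ± 0.13 and −0.87 ± 0.13), as did AURKA, a kinase that shields MYC family proteins, with NCP26 (−0.58 ± 0.14). GSK3B, which marks MYC for degradation (0.64 ± 0.12 and 0.68 ± 0.10), and FBXO28, a ubiquitin ligase subunit (0.62 ± 0.14 and 0.96 ± 0.13), rose. The deubiquitinase USP36 rose with HFG (0.66 ± 0.11).

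Factors upstream of MYC were taken as CEBPG, ATF6, TCF12 and E2F6, for which the study predicted sites in MYC regulatory elements. The study reported the proteins of these genes as lowered by NCP26 in AMO1 cells, with their mRNA unchanged. Further factors were IRF4, PRDM1, POU2AF1 and TCF3, known to act in plasma cells. The study predicted such sites in elements of PRDM1 and POU2AF1 as well as of MYC. Whether these further factors act on MYC in these cells was not tested. Protein was not analysed here, and the changes below are of RNA alone. IRF4 fell in AMO1 cells with NCP26 (−1.103 ± 0.10 at 6 h and −0.12 ± 0.043 at 24 h) and HFG (−1.37 ± 0.078 and −0.28 ± 0.049). POU2AF1 fell with NCP26 (−1.43 ± 0.10 at 6 h and −1.14 ± 0.043 at 24 h) and HFG (−1.84 ± 0.078 and −1.94 ± 0.052). At 6 h TCF3 (−0.37 ± 0.094 and −0.42 ± 0.062) and PRDM1 (−0.77 ± 0.10 and −0.95 ± 0.092) also fell. CEBPG, a bZIP partner in stress responses, rose with NCP26 (1.36 ± 0.11 at 6 h and 1.42 ± 0.065 at 24 h) and HFG (1.23 ± 0.091 and 1.11 ± 0.068). At 6 h ATF6 (0.27 ± 0.10 and 0.39 ± 0.080) and TCF12 (0.33 ± 0.11 and 0.56 ± 0.090) rose too. E2F6, a repressor of the E2F family, changed by 0.21 ± 0.11 (adjusted p = 0.170) with NCP26 and 0.40 ± 0.10 (adjusted p = 0.00259) with HFG. With NCP26 at 6 h the RNA of CEBPG, ATF6 and TCF12 thus rose here, whereas the study, which used DESeq2, reported unchanged mRNA. The reason for this difference was not tested. In L363-CFZr cells at 6 h CEBPG rose with both (1.85 ± 0.11 and 1.93 ± 0.081), and IRF4 changed by −0.32 ± 0.11 (adjusted p = 0.0644) with NCP26 and −0.20 ± 0.060 (adjusted p = 0.00775) with HFG. Whether the effect on IRF4 differs between the lines was not tested.

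The genes whose group means followed MYC most closely were found by Pearson correlation of log2 CPM, as a description with no test. Over the 12 AMO1 groups and 10055 genes they were HMGN4 (r = 0.968), EIF4E2 (r = 0.962), RTN4 (r = 0.959), ALAS1 (r = 0.951) and MAP2K1 (r = 0.946). Over the 10 L363-CFZr groups and 9807 genes they were MARS2 (r = 0.949), KDELR2 (r = 0.936), SUMO3 (r = 0.930), NCL (r = 0.927) and TMEM203 (r = 0.924). NCL, which encodes nucleolin, is also a listed MYC target, and the groups share sets of libraries.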

How the data were processed

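Poly(A) RNA of 66 libraries had been made into directional paired-end libraries (NEBNext Ultra II) and sequenced on a NextSeq 500. The authors assigned reads to a GRCh38 transcriptome with kallisto (version not given in the sources used here), while the submitters' processing notes name hg19, and deposited whole-number counts per gene for 20167 genes, of which 19299 (95.7%) were named from GENCODE v44. Groups came from the sample labels. Members, lists and rules were chosen with earlier results of these data known. Counts were tested with edgeR 4.0.16 (R 4.3.3), the quasi-likelihood test after filterByExpr (minimum count 10, total 15) and TMM scaling, with 6 libraries per fit (12 for interactions), Benjamini-Hochberg adjustment over all genes and a threshold of 0.05. Compared treatments share their DMSO libraries. All 8 members and lists of up to 10 genes were to be named, and of longer lists the 4 largest called changes with a mean of at least 5 CPM, of which the main comparisons are printed. Alternatives were DESeq2 1.42.0, its size factors, no filter, 1 fit for all groups, a term for set, an offset for GC content (lowess span 0.3), a replicate block and leaving out each library. The steps were tested on simulated data.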

Additional observations from a re-analysis of the deposited data

Results flagged for a closer look

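Each value here is a difference between effects against DMSO on the log2 scale (± SE), from an interaction test in edgeR that passed an adjusted p of 0.05. Between the lines (L363-CFZr minus AMO1), NCP26 differed at 6 h for MYC (0.86 ± 0.13, adjusted p = 0.000798), MXD3 (1.299 ± 0.32, adjusted p = 0.0374) and MXI1 (0.66 ± 0.17, adjusted p = 0.0457), and at 24 h for MYC (0.69 ± 0.12, adjusted p = 0.00675) and MXD3 (1.14 ± 0.29, adjusted p = 0.0391). HFG differed between the lines at 6 h for MYC (0.98 ± 0.086, adjusted p = 4.08e-08), MXD1 (−0.56 ± 0.16, adjusted p = 0.0179), MXD3 (1.15 ± 0.27, adjusted p = 0.00485) and MXI1 (0.83 ± 0.15, adjusted p = 0.000345), and at 24 h for MYC (0.88 ± 0.11, adjusted p = 0.000257) and MXI1 (0.63 ± 0.17, adjusted p = 0.0223). Between the times in AMO1 cells (24 h minus 6 h), NCP26 differed for MXD1 (−0.46 ± 0.15, adjusted p = 0.0434) and MXI1 (0.82 ± 0.11, adjusted p = 6.38e-05), HFG for MYC (0.61 ± 0.079, adjusted p = 6.08e-06) and MXD1 (−1.60 ± 0.15, adjusted p = 9.24e-08), and CFZ for MXD1 (−2.08 ± 0.15, adjusted p = 1.30e-06) and MXI1 (−0.48 ± 0.13, adjusted p = 0.0149). The lines and the times also differ in set of libraries and the times in storage. With a term for set, the differences of MYC between the lines were 0.87, adjusted p = 6.15e-11 and 0.68, adjusted p = 0.000257 for NCP26 at 6 h and 24 h, and 1.05, adjusted p = 2.95e-08 and 0.87, adjusted p = 1.26e-06 for HFG.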

How the results depend on the processing

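Of 98 calls over the 328 member tests, 97 were kept with DESeq2 size factors, 96 without a filter, 89 with the GC offset, 88 with all groups in 1 fit and 71 with a term for set, and DESeq2 kept 82 of the 96 to which it gave an adjusted p. The falls of MYC in AMO1 cells with NCP26 and HFG passed under each of these, and no direction of a call reversed. Counts of members called that moved by more than 1.5 times, and changes of MYC that crossed the threshold, were as follows, and the cause was not tested. A term for set, in a fit of all 66 libraries, gave 3 members (from 7) for AMO1 NCP26 at 24 h, 2 (from 6) for AMO1 HFG at 24 h, 0 (from 1) for AMO1 and for L363-CFZr halofuginol at 6 h, 3 and 4 (from 0) for L363-CFZr NCP26 at 6 h and 24 h, 0 (from 4) and 2 (from 0) for L363-CFZr HFG at 6 h and 24 h, 5 (from 8) over the 4 comparisons of NCP26 with HFG and 3 (from 6) over both comparisons of the lines in DMSO. The shares of all genes were 22.1% (from 60.7%) and 28% (from 59%) for AMO1 NCP26 and HFG at 24 h, 1.01% and 2.47% for halofuginol at 6 h, 28.1% and 27.5% for L363-CFZr NCP26, 21.9% and 20.5% for L363-CFZr HFG, 0.0424% to 34.2% between NCP26 and HFG and 20.7% to 34.5% between the lines. MYC in L363-CFZr cells was then −0.22, adjusted p = 0.00378 and −0.17, adjusted p = 0.0301 with NCP26 at 6 h and 24 h, and −0.20, adjusted p = 0.192 and 0.25, adjusted p = 0.00190 with HFG. One fit for all groups gave 2 (from 1) for AMO1 CFZ at 24 h, 0 (from 1) for AMO1 and L363-CFZr halofuginol at 6 h, 3 and 1 (from 0) for L363-CFZr NCP26 at 6 h and 24 h, 1 (from 0) for L363-CFZr HFG at 24 h and 8 (from 5) between the times in DMSO (in this order 45.2%, 1.04%, 6.94%, 26.4%, 26.3%, 17.3% and 37.5% to 46.6% of all genes), with MYC at −0.22, adjusted p = 0.0281 for L363-CFZr NCP26 at 6 h and 0.27, adjusted p = 0.0134 for HFG at 24 h. DESeq2 gave 3 (from 6) for AMO1 CFZ at 6 h, beside 18% of all genes. It gave no adjusted p to 18 member tests, so that the counts for AMO1 halofuginol at 6 h and between NCP26 and HFG were not compared. No filter gave 1 (from 0) for L363-CFZr NCP26 and NCP22 at 6 h (14.5% and 0.734%), and MYC with AMO1 CFZ at 6 h at −0.18, adjusted p = 0.0683. The GC offset gave 0 (from 1) for AMO1 halofuginol at 6 h, 1 (from 0) for L363-CFZr NCP26 at 6 h (2.1% and 13.1%), and MYC with L363-CFZr HFG at 6 h at −0.019, adjusted p = 0.816. Replicates of the same number correlated by −0.353 to 0.3 in their deviations from the group means, and in 0 of 34 comparisons were all pairs over 0.1. This cannot show whether replicates of the same number were handled together, which the sources used here do not say. The replicate block gave 6 (from 11) effects that differed between the lines (0.801% to 17.4% of all genes), with MYC for NCP26 at 24 h at 0.69, adjusted p = 0.0675, and MYC with AMO1 CFZ at 6 h at −0.18, adjusted p = 0.0789, and it kept 88 of the 98 calls. The replicate block with the GC offset kept 78 and gave 0 (from 1) for AMO1 halofuginol at 6 h, 2 (from 4) for L363-CFZr HFG at 6 h and 7 (from 11) effects that differed between the lines (2.44%, 37.4% and 1.25% to 20.9%), with MYC at 0.66, adjusted p = 0.0728 for the lines with NCP26 at 24 h, −0.16, adjusted p = 0.0716 for AMO1 CFZ and −0.022, adjusted p = 0.781 for L363-CFZr HFG at 6 h. Leaving out 1 library at a time gave 1 to 3 for AMO1 CFZ at 24 h, 0 to 1 for AMO1 NCP22 at 24 h and halofuginol at 6 h, 0 to 3 for L363-CFZr NCP26 at 6 h, 0 to 1 for L363-CFZr NCP26 and HFG at 24 h and halofuginol at 6 h, 4 to 10 between the lines in DMSO and 3 to 7 between the times in DMSO. MYC then ranged from −0.20 to −0.16 for AMO1 CFZ at 6 h, from −0.26 to −0.15 for L363-CFZr NCP26 at 6 h and from 0.24 to 0.28 for HFG at 24 h. Replicates, 3 per group, and the counts of MXD3 and MNT limit what could be detected.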
